A study of Homo sapiens with 9 samples.

Results

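The 80 genes described here belong to the nuclear part of the mitochondrial respiratory chain and ATP synthase. By symbol, 37 were assigned to complex I, 4 to complex II, 9 to complex III, 11 to complex IV and 19 to complex V. They were chosen by name and level, out of 57500 genes counted, as the NDUFA, NDUFB, NDUFC, NDUFS, NDUFV, SDH, UQCR, COX4 to COX8 and ATP5 symbols, without antisense genes or pseudogenes and with a mean of at least 100 counts per library. Of 91 symbols that matched, 3 were dropped for a hyphen, 6 as pseudogenes and 2 for low counts. The members just inside the minimum were NDUFA7 with a mean of 220 counts, UQCRHL with 493 and NDUFV2 with 869, and the 2 just outside were NDUFA4L2 with 45.7 and COX6B2 with 17.2. Complexes were assigned by symbol, so NDUFA4 stayed with complex I although its protein is a complex IV subunit, and ATP5S, now named DMAC2L, stayed with complex V. The choice by name also took in ATP5IF1, an inhibitor of ATP synthase, and left out CYC1, cytochrome c1 of complex III.

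The cells were HEK293T, a human embryonic kidney line that carries the SV40 large T antigen. They were kept for 5 h with 10 µM HBC530, with 10 µM MsOc3HBC or with the vehicle DMSO. HBC530 is a small molecule that binds the fluorogenic RNA aptamer Pepper without forming a bond to it. MsOc3HBC is a related ligand with a mesylate handle, which the study found to alkylate a guanine of Pepper. The study's methods for these libraries mention no transfection with Pepper. Each treatment had 3 biological replicates, and poly(A) RNA was sequenced in all 9 libraries. The design asks how each ligand changed gene expression against DMSO, and the 2 ligands, matched in dose and time, were also compared with each other.

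The respiratory chain passes electrons from NADH through complex I and from succinate through complex II to complex III and then to complex IV, where oxygen is reduced, and ATP synthase, complex V, uses the proton gradient that this builds. Complexes I, III, IV and V mix subunits made from nuclear genes with a few made from mitochondrial DNA, whereas complex II is wholly nuclear. Many nuclear subunit genes share promoter sites for NRF1, for the ETS protein GABP and for YY1, factors known to tie their transcription together.

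Short stretches before the transcription start show these sites, in capitals, with up to 20 bases on each side. For each site they come from the first 2 of the genes named below, in order of adjusted p between the ligands, whose stretch lies outside the gene's counted span. They are written 5′ to 3′ on the gene's own strand from RefSeq's promoter windows on GRCh38.p14, which hold 250 bases before and 50 after each start.
SDHB, core of an NRF1 site, chr1:17054185-17054230, minus strand: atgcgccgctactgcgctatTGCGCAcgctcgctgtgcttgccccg
SDHA, core of an NRF1 site, chr5:218133-218178, plus strand: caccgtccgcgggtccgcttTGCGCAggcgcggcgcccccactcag
NDUFB7, ETS site, chr19:14572067-14572109, minus strand: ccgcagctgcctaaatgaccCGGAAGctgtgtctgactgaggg
ATP5F1E, ETS site, chr20:59032543-59032585, minus strand: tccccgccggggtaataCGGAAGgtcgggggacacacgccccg
NDUFS8, YY1 site, chr11:68030484-68030530, plus strand: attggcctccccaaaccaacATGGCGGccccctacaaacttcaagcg
SDHD, YY1 site read on the opposite strand, chr11:112086697-112086743, plus strand: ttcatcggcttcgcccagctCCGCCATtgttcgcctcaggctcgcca
The first base of the site lay 178 bases before the start in SDHB, 167 in SDHA, 23 in NDUFB7, 233 in ATP5F1E, 177 in NDUFS8 and 156 in SDHD. Windows were found for 65 of the 80 members and searched on both strands for the core of an NRF1 site (TGCGCA), for the ETS site (CGGAAG) and for the YY1 site (ATGGCGG). The end of ATGGCGG can form the start of CGGAAG, so a stretch can count for both. TGCGCA stood in 19 of the 65 windows (29.2%) against 8.42% of all 27305 RefSeq windows of the same length. CGGAAG stood in 27 (41.5%) against 19.9%, and ATGGCGG in 19 (29.2%) against 5.72%. At least 1 of the 3 words was in 45 member windows (69.2%) and in 28.8% of all windows. The complexes did not carry the words alike: CGGAAG was in 9 of the 14 complex V windows but 8 of the 31 complex I windows, and ATGGCGG in 13 complex I windows but 1 complex V window. All 3 complex II windows that were found held TGCGCA. Each of the 3 words holds a CG, and the windows compared were not matched for base composition or for expression of the gene. The excess can therefore not be called particular to these genes. A matching word is a description of the letters and was not tested as a binding site.

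The libraries held 28056929 to 62205366 counts, and the lowest totals were those of replicate 3 of MsOc3HBC and of HBC530 (34963314). These 2 libraries stood apart from the other 7 on the first principal component of all genes. In both, shorter transcripts read higher, with Spearman's rho across genes between exonic length and a library's deviation of -0.42 for HBC530 replicate 3 and -0.31 for MsOc3HBC replicate 3. Replicates of a group differed by more than sampling noise in every pair, so none was counted as a duplicate. The HEK293 markers NEFL, NEFM, VIM, KRT18, PAX2 and LIN28B were detected in every library and summed to 566 to 685 CPM (counts scaled to the library's total), whereas 7 markers of other cell types (blood, liver, endothelial, stromal and muscle) summed to 0.538 to 1.09 CPM, with PTPRC, CD3E, ALB and MYH7 at a median of 0. The summed HEK293 markers were 566 to 597 CPM in DMSO, 605 to 661 in HBC530 and 600 to 685 in MsOc3HBC.

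In DMSO the members took 1.18% to 1.204% of all counts. Scaled by exonic length, they made up 1.96% ± 0.0304 of the total (SD, n = 3): 0.762% for complex I, 0.0338% for complex II, 0.215% for complex III, 0.411% for complex IV and 0.535% for complex V. Exonic length covers all exons listed for a gene, such as 14160 bases for SDHC and 9715 for UQCRB. It can exceed the transcript that the cells make, so comparisons between genes and complexes on this scale are approximate. The median subunit level, in TPM (counts scaled by exonic length and then to the library's total), was 308 in complex IV, 210 in complex V, 169 in complex III, 87.0 in complex I and 79.1 in complex II.

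**Figure D1:**
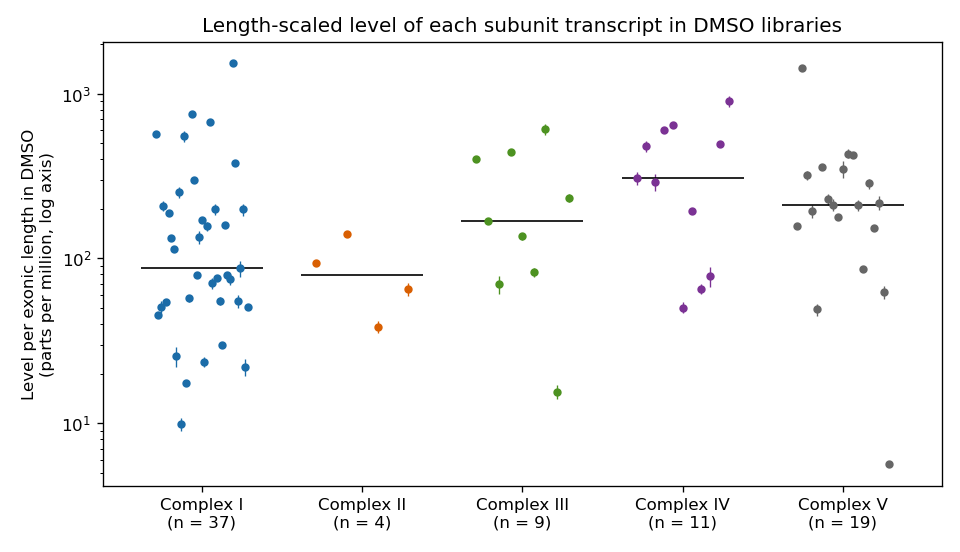
Length-scaled level in DMSO (TPM, log axis) of each of the 80 subunit transcripts by complex. Points are means and bars SDs of 3 DMSO libraries, and black lines are the medians of each complex, highest in complex IV (308) and lowest in complex II (79.1); within complex V the levels run from 5.65 for ATP5S to 1429 for ATP5F1B.

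The plot of levels by complex shows that subunits of the same complex spread over a wide range next to the SDs of the DMSO replicates. The highest length-scaled level was that of NDUFS5, an accessory complex I subunit, at 1529 ± 11.7 TPM (SD, n = 3). It was followed by ATP5F1B, the catalytic β subunit of ATP synthase, at 1429 ± 13.4. Next came COX8A, a small complex IV subunit, at 899 ± 69.4, and the complex I accessory subunits NDUFB10 at 746 ± 19.2 and NDUFB7 at 672 ± 23.8. Each step in this order was wider than the SDs of the neighbours.

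At the lower end, ATP5S stood at 5.65 ± 0.137 TPM, NDUFA7 at 9.89 ± 0.936, UQCRHL at 15.6 ± 1.53, NDUFA9 at 17.5 ± 0.211 and NDUFV2 at 21.9 ± 2.53. NDUFA9 is an accessory subunit of the arm that protrudes into the matrix, and NDUFV2 is a core subunit that carries an iron-sulfur cluster. UQCRHL is a near-copy of UQCRH, which stood at 609 ± 45.9 on the same scale. Reads that fit both genes were not counted, so the split between these 2 is uncertain, and 49 members have at least 1 pseudogene named after them. In 28 members more than 10% of the exonic length overlapped another gene, on either strand, with the largest overlap in ATP5ME (61.6%). Among the low members it was 33.5% in NDUFA7, 28.4% in NDUFV2, 20.1% in ATP5S, 9.89% in NDUFA9 and 0% in UQCRHL. The part of overlap in these low levels was not tested.

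Complex II links the citric acid cycle to the chain. Its order per length was SDHB, the iron-sulfur subunit, at 141 ± 2.81 TPM, SDHA, the flavoprotein, at 93.3 ± 1.73, and the membrane anchors SDHD at 64.9 ± 5.93 and SDHC at 38.5 ± 3.39. The order by mean counts was another: SDHA 11020, SDHC 7643, SDHB 4929 and SDHD 2333. The 3 genes for the identical c subunit of the ATP synthase ring were close together, with ATP5MC1 at 229 ± 18.6, ATP5MC2 at 210 ± 17.5 and ATP5MC3 at 177 ± 4.65, and the first 2 did not differ beyond their SDs. ATP5IF1, which inhibits ATP synthase when it runs backwards, stood at 360 ± 10.2. NDUFA4 stood at 115 ± 0.610.

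Where complex IV has paralogues, the broadly used forms carried the counts. COX4I1, COX6A1, COX6B1, COX7A2, COX7A2L, COX7B and COX8A were all members, at 308 ± 28.4, 601 ± 18.1, 643 ± 26.9, 195 ± 5.27, 65.1 ± 4.42, 78.0 ± 10.7 and 899 ± 69.4 TPM in DMSO. The tissue-restricted forms COX4I2, COX6A2, COX7A1, COX7B2 and COX8C had a mean of 0.222 to 5.67 counts per library, and COX6B2 had 17.2.

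No member passed the test for a change with either ligand against DMSO. By the quasi-likelihood test of edgeR, adjusted by Benjamini-Hochberg over all genes, 0 of 80 members had an adjusted p under 0.05 for HBC530 (0.017% of 17684 genes tested did) and 0 of 80 for MsOc3HBC (0.154% of 17514). DESeq2 and limma-voom also called 0 members in both comparisons. The p-values measure the spread between these libraries. In bulk samples a difference in the number of cells of a kind and in the RNA per cell cannot be told apart. All 80 members passed the filter on low counts. At an unadjusted p under 0.05, 0 members stood out for HBC530 (5.07% of all genes did) and 7 for MsOc3HBC, all higher (10.9% of all genes, in either direction). The estimates leaned upwards all the same: 74 of 80 log2 fold changes were above 0 for HBC530 and 73 of 80 for MsOc3HBC, with medians of 0.15 and 0.19 where the medians over all genes tested were 0.00 and 0.01. No member passed the limits that the study set (adjusted p, 0.5; log2 fold change, 1). Both comparisons share the DMSO libraries.

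This lean rested on a single library of each ligand. Relative to the mean of the DMSO libraries, the median member log2 CPM deviation was 0.01, -0.01 and 0.00 in DMSO, 0.01, -0.04 and 0.46 in HBC530 and 0.03, -0.03 and 0.49 in MsOc3HBC, replicates 1 to 3. Replicate 3 of HBC530 thus stood at 1.37 times and replicate 3 of MsOc3HBC at 1.40 times the DMSO mean, and 79 of 80 members were above that mean in each. In replicates 1 and 2, between 24 and 47 members were. The share of all counts on the members was 1.21%, 1.17% and 1.45% in HBC530 and 1.23%, 1.19% and 1.52% in MsOc3HBC.

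**Figure D2:**
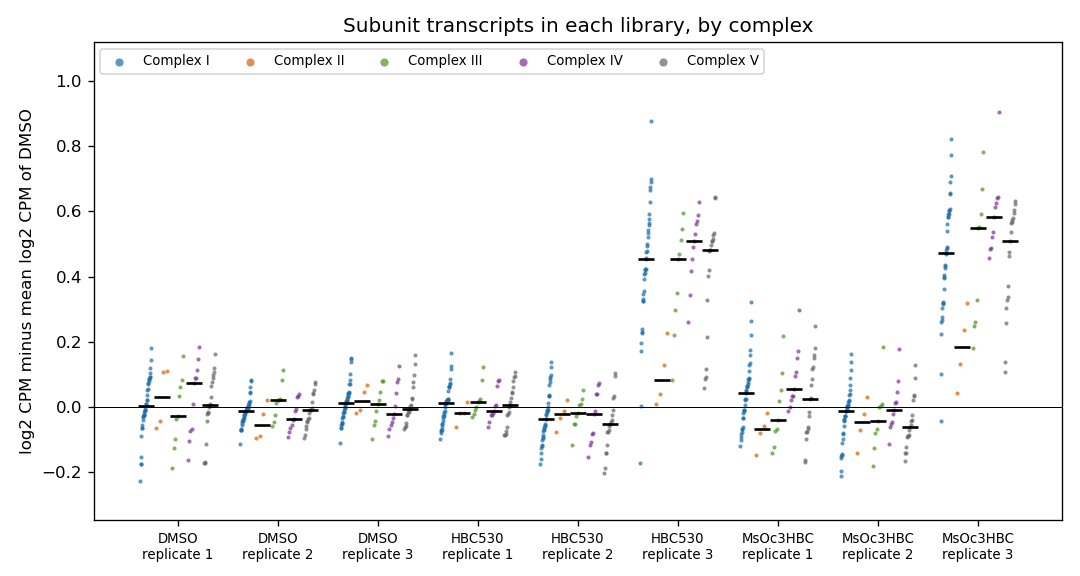
log2 CPM of each member minus its mean log2 CPM in DMSO, for the 9 libraries, coloured by complex. Short black lines are medians of each complex: in 7 libraries they lie between -0.07 and 0.07, and in replicate 3 of both ligands those of complexes I, III, IV and V lie between 0.45 and 0.58, with complex II at 0.08 and 0.18.

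The plot of members by library shows that complex II stood higher in replicate 3 of both ligands by less than the other 4 complexes. All 4 of its genes were above the DMSO mean in both libraries. In HBC530 replicate 3 the median deviation (log2 CPM) was 0.45 for complex I, 0.08 for complex II, 0.45 for complex III, 0.51 for complex IV and 0.48 for complex V. In MsOc3HBC replicate 3 the same medians were 0.47, 0.18, 0.55, 0.58 and 0.51. SDHA had 218, 231 and 235 CPM in DMSO, 230, 226 and 234 in HBC530 and 216, 217 and 235 in MsOc3HBC. SDHC had 170.5, 148 and 157 CPM in DMSO, 156, 150 and 159 in HBC530 and 156, 156 and 173 in MsOc3HBC. SDHA and SDHC overlapped between all groups. SDHB, highest in replicate 3 of each ligand, had 98.2, 99.8 and 106 CPM in DMSO, 97.1, 103 and 119 in HBC530 and 91.4, 91.7 and 120 in MsOc3HBC. SDHD had 51.1, 44.4 and 46.7 CPM in DMSO, 46.7, 46.2 and 51.8 in HBC530 and 45.4, 48.4 and 59.2 in MsOc3HBC. The log2 fold changes of the 4 genes lay between -0.03 and 0.07 for HBC530 and between -0.03 and 0.11 for MsOc3HBC, each with a 95% interval inside 0.5 on either side of 0.

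Some subunits of the other complexes also stood near the DMSO mean in replicate 3. NDUFS1, the largest core subunit of complex I, had 109, 107 and 106 CPM in DMSO, 111, 109 and 94.998 in HBC530 and 102, 114 and 104 in MsOc3HBC, so it was the member below the DMSO mean in both replicate 3 libraries. ATP5F1B had 954, 964 and 984 CPM in DMSO, 997, 917 and 1007 in HBC530 and 864, 910 and 1064 in MsOc3HBC. ATP5F1A, the α subunit, had 462, 513 and 527 CPM in DMSO, 521, 485 and 532 in HBC530 and 443, 453 and 538 in MsOc3HBC. NDUFS1, ATP5F1A and ATP5F1B overlapped between groups. Other core subunits stood higher in replicate 3: the deviation (log2 CPM) of NDUFS8 was 0.56 with HBC530 and 0.41 with MsOc3HBC, and that of NDUFV2 0.42 and 0.44. By role, the median deviation (log2 CPM) in HBC530 replicate 3 was 0.11 for the ATP synthase head, 0.37 for its peripheral stalk, 0.40 for the c ring and 0.52 for the other membrane subunits, and in MsOc3HBC replicate 3 it was 0.26, 0.56, 0.37 and 0.57. In complex III the core and Rieske subunits stood at 0.22 and 0.25 and the small subunits at 0.49 and 0.57 in the same 2 libraries. In complex I the 7 core subunits stood at 0.42 and 0.30 and the 30 accessory subunits at 0.46 and 0.52.

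The plot of deviation against length gives a Pearson's r of -0.46 in both libraries over the 80 members, which share the library and its depth, against -0.15 to 0.15 in the other 7. Members were shorter than genes in general, with a median exonic length of 2492 bases against 4201 over genes tested between the ligands, and complex II was the longest group at 5446. Members were set beside all genes of the same length with at least 100 counts on average, as median deviations (log2 CPM) in replicate 3 of HBC530 and of MsOc3HBC. The 9 members under 1000 bases had 0.54 and 0.49, against 0.38 and 0.37 for 308 genes. The 20 members of 1000 to 2000 bases had 0.48 and 0.59, against 0.32 and 0.29 for 899 genes. Both gaps were narrower than those of the longer bins. The 30 members of 2000 to 4000 bases had 0.44 and 0.45, against 0.13 and 0.11 for 3242 genes. The 12 members of 4000 to 8000 bases had 0.47 and 0.40, against -0.08 and -0.06 for 5205 genes. The 9 members of 8000 bases or more had 0.09 and 0.13, against -0.25 and -0.20 for 2604 genes. The members thus stood above the median of their length bin in every bin. With a length trend removed from each library, the member median log2 fold change was 0.11 for HBC530 and 0.12 for MsOc3HBC. The part of depth and transcript length in the member values was not tested further.

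**Figure D3:**
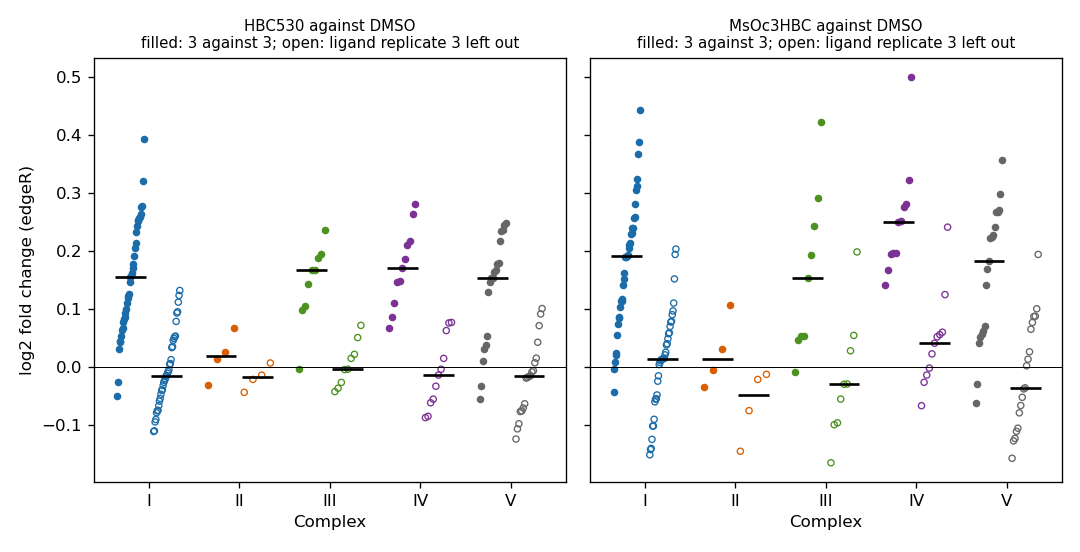
log2 fold change of each member against DMSO for HBC530 (left) and MsOc3HBC (right), by complex, from 3 against 3 libraries (filled) and with the ligand's replicate 3 left out (open). Black lines are medians: those of the 80 members fall from 0.15 to -0.01 for HBC530 and from 0.19 to 0.01 for MsOc3HBC when that library is left out.

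The plot with and without replicate 3 shows medians near 0 once that library is left out. Without it the median log2 fold change over the members was -0.01 for HBC530, with 30 of 80 above 0, and 0.01 for MsOc3HBC, with 43 of 80 above 0. All 80 intervals (95%) then lay within 0.5 on either side of 0, the highest bounds being 0.35 for HBC530 and 0.44 for MsOc3HBC. With all 3 libraries 54 and 41 of the 80 did, and every interval lay within 1. By complex, the medians without replicate 3 were -0.02, -0.02, 0.00, -0.01 and -0.02 (complexes I to V) for HBC530 and 0.01, -0.05, -0.03, 0.04 and -0.04 for MsOc3HBC, where 3 against 3 libraries gave 0.16, 0.02, 0.17, 0.17 and 0.15, and 0.19, 0.01, 0.15, 0.25 and 0.18.

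The 2 largest estimates for HBC530 were those of accessory complex I subunits, NDUFA13 and NDUFB7. NDUFA13, an accessory subunit at chr19:19515736-19529054, had 41.1, 42.5 and 45.5 CPM in DMSO and 45.1, 45.4 and 79.4 in HBC530, with a log2 fold change of 0.39 ± 0.19 (SE). Replicate 3 alone was high, and the groups overlapped. NDUFB7, which sits on the intermembrane-space side of complex I, had 97.6, 107 and 107 CPM in DMSO and 113, 111 and 166 in HBC530, with a log2 fold change of 0.32 ± 0.15 and an adjusted p of 0.75 in edgeR. NDUFV1, the core subunit that binds NADH, had the second smallest p, with 212, 253 and 257 CPM in DMSO and 261, 263 and 329 in HBC530 and a log2 fold change of 0.24 ± 0.12 and the same adjusted p. For NDUFB7 and NDUFV1 all HBC530 libraries lay above all DMSO libraries. In all, 3 of the 80 members were separated, each higher with HBC530, where 13.8% of all genes were in either direction. Without replicate 3 the log2 fold changes of NDUFA13, NDUFB7 and NDUFV1 were 0.08, 0.11 and 0.13. In complexes III to V the smallest p values for HBC530 were those of UQCRC1 and UQCR11, COX6B1 and COX6C, and ATP5MC2 and ATP5F1D, with log2 fold changes between 0.17 and 0.28 and adjusted p of 0.75 in edgeR.

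For MsOc3HBC the largest estimate was that of COX6C, a small complex IV subunit. It had 47.8, 43.7 and 43.5 CPM in DMSO and 55.3, 50.9 and 84.6 in MsOc3HBC, and all 3 ligand libraries lay above all DMSO libraries. Its log2 fold change was 0.50 ± 0.17 (SE), with an adjusted p of 0.34 in edgeR, and 0.24 ± 0.08 without replicate 3. NDUFB1, an accessory subunit of complex I, had 38.7, 36.7 and 37.8 CPM in DMSO and 47.3, 39.5 and 67.1 in MsOc3HBC. UQCRB, a small complex III subunit near the ubiquinone site, had 219, 188 and 183 CPM in DMSO and 228, 223 and 338 in MsOc3HBC. NDUFB3 had 46.9, 41.0 and 41.7 CPM in DMSO and 50.3, 48.4 and 70.8 in MsOc3HBC. The log2 fold changes of these 3 genes were 0.44 ± 0.16, 0.42 ± 0.16 and 0.39 ± 0.14, with adjusted p of 0.38 in edgeR, and 0.20, 0.20 and 0.19 without replicate 3. ATP5S, COX4I1 and NDUFB8 completed the 7 members at an unadjusted p under 0.05. In all, 8 members had non-overlapping libraries, every one higher with MsOc3HBC, where 18.3% of all genes were separated in either direction. They were ATP5IF1, ATP5S, COX6C, COX7A2, NDUFB1, NDUFB3, NDUFV3 and UQCRB. Without the filter on low counts COX6C, NDUFB1 and UQCRB passed an adjusted p of 0.05 in edgeR, when 0.706% of 35395 genes did.

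Between the ligands, MsOc3HBC against HBC530, 0 of 80 members differed (0% of 17397 genes did) by edgeR's quasi-likelihood test without a replicate block, and none had an unadjusted p under 0.05, as 7.32% of genes did. DESeq2 and limma-voom called 0 members. NDUFA5 was the member whose libraries did not overlap, where 15.4% of genes were separated in either direction. The member median log2 fold change was 0.05. It was 0.19 without HBC530 replicate 3 and -0.13 without MsOc3HBC replicate 3. With all libraries, 35 of the 80 intervals (95%) lay within 0.5 of 0 and all within 1. Deviations of same-numbered libraries in the 2 ligand groups correlated at r of 0.167 to 0.433, but MsOc3HBC replicate 2 with HBC530 replicate 1 reached 0.296. The replicate number as a block thus rests on a pairing that these values do not establish. With that block, 11 members differed at an adjusted p under 0.05 in edgeR (13.8% of members, against 11.4% of all genes). The share of members was thus close to that of genes in general. With the block all 80 intervals lay within 0.5 of 0, between -0.31 and 0.33.

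**Figure D4:**
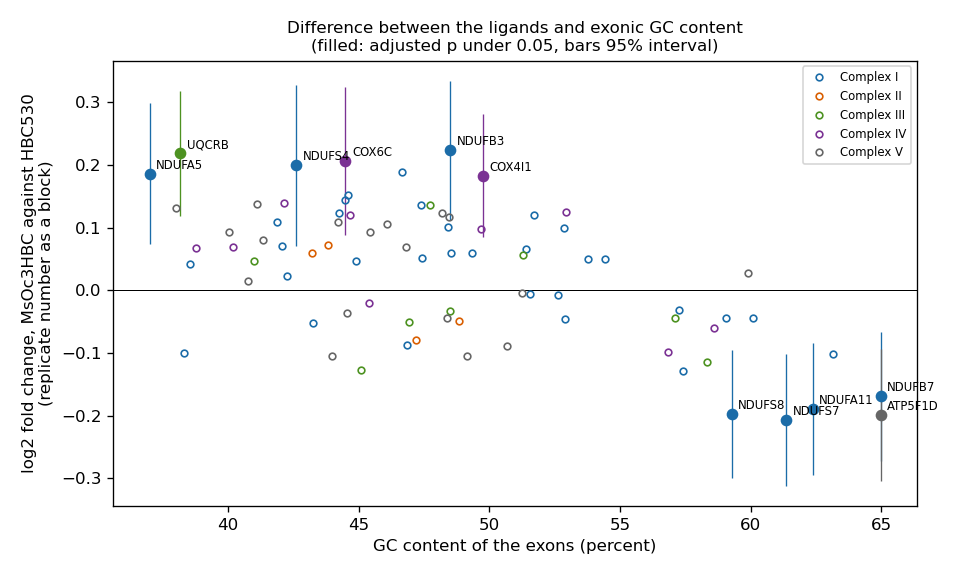
log2 fold change of MsOc3HBC against HBC530 with the replicate number as a block, for the 80 members, against the GC content of their exons (percent). Filled points with 95% intervals have an adjusted p under 0.05: the 6 higher with MsOc3HBC lie at 37.0% to 49.7% GC and the 5 lower at 59.3% to 65.0%.

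The 6 members higher with MsOc3HBC in the fit with the block were UQCRB, NDUFB3, COX4I1, COX6C, NDUFA5 and NDUFS4, with log2 fold changes of 0.18 to 0.22 and adjusted p of 0.0105 to 0.0465 in edgeR. UQCRB had 198, 197 and 280 CPM in HBC530 and 228, 223 and 338 in MsOc3HBC, higher in each numbered pair, with a log2 fold change of 0.22 ± 0.05 (SE). COX4I1, the subunit through which complex IV is regulated by ATP, had 411, 396 and 620 CPM in HBC530 and 483, 453 and 672 in MsOc3HBC, with 0.18 ± 0.05. NDUFA5 had 67.9, 70.9 and 72.8 CPM in HBC530 and 73.0, 80.1 and 88.2 in MsOc3HBC, with 0.19 ± 0.05. Each of the 3 was higher with MsOc3HBC in every pair.

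The 5 lower members were NDUFS7 and NDUFS8, core subunits that carry iron-sulfur clusters, the accessory subunits NDUFA11 and NDUFB7, and ATP5F1D, the δ subunit of the ATP synthase central stalk. Their log2 fold changes were -0.21 to -0.17, with adjusted p of 0.0170 to 0.0374 in edgeR. NDUFS7 had 126, 131 and 170 CPM in HBC530 and 114, 114 and 141 in MsOc3HBC, with -0.21 ± 0.05 (SE). NDUFS8 had 128, 121 and 169 CPM in HBC530 and 111, 103 and 152 in MsOc3HBC, with -0.20 ± 0.05. ATP5F1D had 134, 136 and 179 CPM in HBC530 and 120, 112 and 159 in MsOc3HBC, with -0.20 ± 0.05. In each of these the MsOc3HBC library was the lower of every pair.

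As the plot of GC content shows, the 5 members lower with MsOc3HBC than with HBC530 had a higher GC content (median 62.4%) than the 6 that were higher (median 43.5%), where the median over genes tested was 48.8%. Among the 6, COX4I1 at 49.7% lay above that median and NDUFB3 at 48.5% close to it. Over all replicates the mean CPM of each of the 5 was no lower with MsOc3HBC than in DMSO. NDUFS7, for example, had a mean of 121 CPM in DMSO and 123 in MsOc3HBC. This rested on MsOc3HBC replicate 3. Without that library the log2 fold changes of the 5 against DMSO were all negative, at -0.14 to -0.05 with SEs of 0.07 to 0.11. None of the 5 had an adjusted p under 0.05 in edgeR in that fit. Over the 80 members, exonic GC content was set against the log2 fold change between the ligands in the fit with the block. Pearson's r was -0.59 and Spearman's rho -0.49, over points that share the same 6 libraries. The libraries themselves differed in base composition, with a Spearman's rho across all genes between GC content and a library's deviation of 0.24, 0.24 and 0.24 in HBC530 and -0.12, -0.29 and -0.18 in MsOc3HBC (replicates 1 to 3), and -0.41, 0.14 and 0.35 in DMSO. With GC and length trends removed in the fit with the block, 1 member was called, NDUFA4, which was lower with MsOc3HBC by a log2 fold change of -0.24, and 1.85% of all genes were. Without replicate 3 of both ligands and without the block, 6 members were called (9.16% of all genes): COX4I1 and UQCRB were higher, and NDUFS7, NDUFS8, ATP5F1D and UQCRFS1, the Rieske iron-sulfur protein, lower. With the block as well, 17 members were called (19.5% of all genes), and with the block and the length trend alone removed 8 were (9.97% of all genes).

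The rest of the pathway was read from lists of genes. The 13 protein genes of mitochondrial DNA, which encode the partners of the nuclear subunits in complexes I, III, IV and V, took another order over the libraries than the nuclear members, apart from HBC530 replicate 3, where both stood high. Their median deviation (log2 CPM) was -0.30, 0.05 and 0.28 in DMSO, 0.09, -0.19 and 0.45 in HBC530 and 0.52, -0.14 and 0.06 in MsOc3HBC. MsOc3HBC replicate 1, where they stood highest, had its nuclear members at 0.03, and MsOc3HBC replicate 3, where the nuclear members stood highest, had the mitochondrial genes near the DMSO mean. They took 1.89% to 3.48% of the counts, and 0 of 13 passed an adjusted p of 0.05 in edgeR without a block in any comparison, with medians of 0.11, 0.21 and 0.05 (log2 fold change) for HBC530, for MsOc3HBC and between the ligands. At an unadjusted p under 0.05 there were 0, 1 and 0, where 5.07%, 10.9% and 7.32% of all genes passed. With the block 1 of 13 (7.69%, against 11.4% of all genes), MT-ND4L, was higher with MsOc3HBC than with HBC530.

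Among 53 assembly factors, the proteins that build the complexes without staying in them, 0 passed in either comparison with DMSO in edgeR. At an unadjusted p under 0.05 there were 1 and 6, all higher, where 5.07% and 10.9% of all genes passed in either direction. Their median log2 fold changes were 0.09 and 0.07. Replicate 3 of HBC530 stood at a median deviation of 0.26 and that of MsOc3HBC at 0.28 (log2 CPM), less than the subunits. The smallest adjusted p, 0.091, was that of SDHAF4, which helps to mature the flavinated SDHA subunit of complex II. SDHAF4 had 6.42, 5.91 and 5.998 CPM in DMSO, 7.71, 6.87 and 8.22 in HBC530 and 8.34, 9.95 and 9.71 in MsOc3HBC, with log2 fold changes of 0.31 and 0.61 against DMSO. Its libraries did not overlap between any 2 of the groups, and replicate 3 did not stand out. Of all genes, 13.8% were separated in either direction for HBC530 against DMSO, 18.3% for MsOc3HBC against DMSO and 15.4% between the ligands. With the block, 4 assembly factors differed between the ligands, COA5 and FMC1 higher and UQCC3 and SCO2 lower with MsOc3HBC, which is 7.55% of the list against 11.4% of all genes.

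Of 14 regulators of this gene set, 0 passed against DMSO in edgeR, with median log2 fold changes of -0.06 and -0.09. At an unadjusted p under 0.05 there was 1 each, GABPA with HBC530 and YY1 with MsOc3HBC, both lower. Of all genes 5.07% and 10.9% passed that limit. GABPA, the DNA-binding subunit of GABP, had 62.01, 55.7 and 51.4 CPM in DMSO and 50.2, 49.8 and 36.2 in HBC530, with a log2 fold change of -0.31. With the block, PPRC1, a coactivator of the PGC-1 family, and POLRMT, the mitochondrial RNA polymerase, were lower with MsOc3HBC than with HBC530, both with a log2 fold change of -0.26 (2 of 14, where 11.4% of all genes were called). The list of subunits and carriers outside the name rule held 4 genes, CYC1, CYCS, NDUFAB1 and ATP5S (a member under its deposited name). It had 0 calls against DMSO in edgeR (0 and 1 at an unadjusted p under 0.05, where 5.07% and 10.9% of all genes passed). The gene under that limit with MsOc3HBC was ATP5S, already counted among the members. CYC1, cytochrome c1 of complex III, was lower with MsOc3HBC than with HBC530 in the fit with the block, by a log2 fold change of -0.17 (1 of 4, where 11.4% of all genes were called).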

How the data were processed

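The deposited count files hold raw counts per gene. Per the labels and the study's methods, the authors used Trimmomatic 0.36 for trimming, STAR 2.5.2b for alignment against GRCh38, and counted unique gene hits with featureCounts (Subread 1.5.2). The annotation release and strand setting were not given in the sources used here. Signal columns in the authors' 2 tables are counts divided by DESeq2 size factors, and the same tables hold fold changes and p-values. Only their gene names were used.

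Counts were tested in edgeR 4.0.16 (R 4.3.3) with filterByExpr, TMM factors, the quasi-likelihood test and Benjamini-Hochberg adjustment over all genes tested. Each comparison set 3 libraries against 3. The fit was checked on simulated counts without an outlying library or a trend in length or GC. That check therefore does not cover libraries such as replicate 3 of the ligands. CPM used TMM factors over all 9 libraries, and deviations log2(CPM + 0.5). Exonic length came from the count files and GC content from GRCh38. Library totals of 28056929 to 62205366 set the counting precision.

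Deviations of same-numbered ligand libraries from their group means had r of 0.167, 0.368 and 0.433 across 18041 genes. The replicate number was used as a block on that basis. Unlike-numbered ligand libraries ran from -0.472 to 0.296, and MsOc3HBC replicate 2 with HBC530 replicate 1 (0.296) exceeded the first pair (0.167). Same-numbered ligand and DMSO libraries had -0.111 to 0.172, a range that reaches the first ligand pair. Pairing was thus not established. Alternatives were DESeq2 1.42.0, limma-voom (limma 3.58.1), other scalings and filters, a replicate block, trends in length and GC, and libraries left out. The members and lists were chosen with earlier results of these data known. Named genes were members called in any comparison, the 10 of smallest adjusted p with the block, the 2 of smallest p per complex and comparison, the 5 highest and 5 lowest levels, complex II, paralogue groups, ATP5IF1 and those nearest the count minimum. Others named in the text (NDUFS1, NDUFA13, NDUFB8, NDUFS4, NDUFV3, UQCRFS1 and list genes) were chosen after their values were seen. Not every member's own values are reported here.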

Additional observations from a re-analysis of the deposited data

How the results depend on the processing

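Members called against DMSO stayed at 0 under every alternative except MsOc3HBC without a filter on low counts (3). Leaving out 1 library each kept 0 calls in all 3 comparisons. Between the ligands, 0 became 11 with the replicate block, 8 (9.97% of all genes) with the block and the length trend removed, 1 with the block and GC and length trends removed, 6 without replicate 3 of both ligands and 17 (19.5% of all genes) without them and with the block. The block changed no other count of members called. The 2 trend fits with GC and the last fit were chosen after seeing the data.

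The median log2 fold change over the members ranged, with 1 library left out, from -0.01 to 0.25 for HBC530, 0.01 to 0.28 for MsOc3HBC and -0.13 to 0.19 between the ligands. The complex V median for MsOc3HBC against DMSO was -0.036 without MsOc3HBC replicate 3 (range -0.04 to 0.28). All other alternatives moved a complex median by less than the spread between replicates. The replicate 3 libraries widen that spread, so staying within it does not show that a median is stable. For HBC530 against DMSO, the complex I median went from 0.16 to -0.02 without HBC530 replicate 3. That of complex IV went from 0.17 to -0.01. Of 2360 alternative values of the 40 named genes, 42 gained a call. No named gene was called in the main fits, so none could lose a call or change sign with one. In 167 an uncalled value changed sign. With the block, the assembly factor SDHAF4 passed for MsOc3HBC against DMSO (adjusted p = 0.0178 in edgeR, when 0.851% of all genes did). Same-numbered libraries of these groups correlated at only -0.111 to 0.041. Depth and 3 libraries a group limit the precision to the intervals given.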
